A study of Mus musculus with 10 samples.

Results

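Oligodendrocytes wrap axons in myelin, and 9 genes that mark successive steps of their formation were followed in cultured mouse cortical cells with and without delivered Gata1. The genes were Olig2, Olig1, Sox10, Pdgfra, Gpr17, Enpp2, Mbp, Cnp and Mag. They were chosen by name as the rows of both mRNA tables that carry these symbols. Each symbol had 1 row, so all 9 were found among 40904 gene symbols.

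The cells were primary cortical neurons of ICR mice, prepared at embryonic day 14 and collected on day 11 in vitro. One condition received an adeno-associated virus labelled AAV-Control and the other one labelled AAV-Gata1, which delivers the blood cell transcription factor GATA1. From either condition came 1 library of mRNA and 1 of small RNA. These 4 of the 10 samples are described, and no difference has a replicate check or a test. The sources used here do not give the promoter that drives Gata1 or the number of embryos behind a culture.

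Oligodendrocytes arise from progenitor cells. The factors OLIG2, OLIG1 and SOX10 set the lineage, and progenitors divide in response to platelet-derived growth factor, which they sense through PDGFRA. Cells that leave the cycle pass through a stage marked by the receptor GPR17 before they make the myelin proteins MBP, CNP and MAG. In cortex the lineage forms mainly after the neurons, and cortical cultures commonly hold some of its cells beside neurons and astrocytes.

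The value columns of the mRNA tables do not spell out the condition, which was taken from the sample each table belongs to, and every direction rests on it. Gata1 itself was listed at 0 FPKM with AAV-Control and stood at 2.07 FPKM with AAV-Gata1. FPKM are fragments per kilobase of transcript, scaled to 1000000 mapped fragments. The mRNA tables summed to 476398 and 476848 FPKM, with 13748 and 13704 symbols at 1 FPKM or more, and the number of fragments behind them is unknown. Against the label of a neuronal culture, the astrocyte gene Gfap stood at 887 and 897 FPKM and the glial and progenitor gene Vim at 1280 and 1357 FPKM, beside 240 and 236 FPKM for the neuronal gene Map2.

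All 9 genes were expressed in both libraries, and their order by level was nearly the same in each. Olig1 stood highest, at 87.9 FPKM with AAV-Control, above Cnp (59.4), Olig2 (38.3), Mbp (37.8), Pdgfra (24.1), Gpr17 (15.2), Enpp2 (9.73), Sox10 (8.54) and Mag (3.75). With AAV-Gata1 a single neighbouring pair changed places, Mbp (38.5 FPKM) then standing above Olig2 (33.8 FPKM). These genes were 0.432 FPKM apart in the control library, while Olig2 alone differed by −4.48 FPKM between libraries, so their order is not resolved. The next smallest step, Enpp2 above Sox10, kept its direction in both.

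The factor and receptor genes and Enpp2 were lower with AAV-Gata1, and the myelin protein genes were almost level. Differences are given as log2((Gata1 FPKM + 1)/(control FPKM + 1)), a scale that damps differences of low genes. On it 7 of the 9 were lower, where 54.7% of the 13740 genes that averaged 1 FPKM or more were lower by any amount, and 45.3% higher. Their median was −0.10 against −0.013 over those 13740 genes. On this scale none of the 9 was 1.2-fold lower or higher, a size that 3.98% of all genes passed on the lower side and 3.29% on the higher side. None was 2-fold apart either (0.284% of all genes lower, 0.233% higher). Among 12213 genes with a proper name, predicted genes and small RNA genes being left out, 54.9% were lower and 45.1% higher. Of these, 2.78% were 1.2-fold lower and 2.27% higher, and 0.0409% were 2-fold lower and as many higher. With a pseudocount of 0.1 FPKM in place of 1, Enpp2 and Gpr17 passed 1.2-fold on the lower side, as 5.9% of all genes did.

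**Figure D1:**
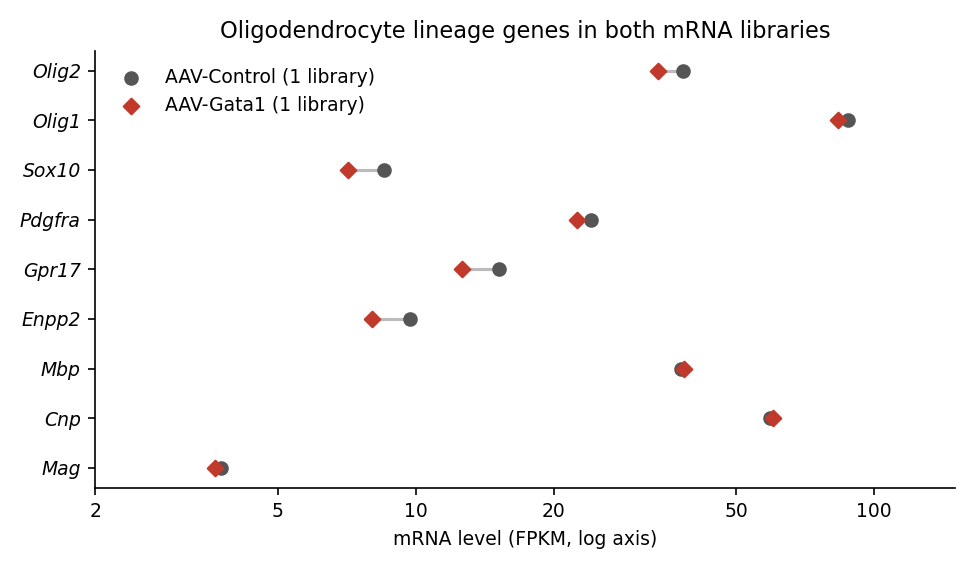
FPKM (log axis) of the 9 genes in the AAV-Control library (grey circles) and the AAV-Gata1 library (red diamonds), 1 library each, so no error bars. The diamonds lie to the left of the circles for the top 6 genes and overlap them for Mbp, Cnp and Mag.

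Olig2 encodes a basic helix-loop-helix factor needed to form oligodendrocytes, and stood at 38.3 FPKM with AAV-Control and 33.8 FPKM with AAV-Gata1. The plain ratio of FPKM, with no pseudocount, was 1.13-fold lower, and the log2 ratio with it was −0.17. Of the 4221 genes within 2-fold of its level, 4.69% had as low a ratio or a lower one. Olig1, its relative and a neighbour on chromosome 16, with no annotated gene lying wholly between them, stood at 87.9 and 83.5 FPKM (log2 ratio −0.075). At that level 19.0% of 1900 genes were as low or lower. Within a library the FPKM of Olig1 was 2.30 times that of Olig2 with AAV-Control and 2.47 times with AAV-Gata1.

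Sox10, which switches on myelin genes and is also used by Schwann cells, stood at 8.54 and 7.12 FPKM (log2 ratio −0.23), and 6.17% of genes at its level were as low or lower. It was the lowest of the 3 factors in level and the furthest apart between libraries.

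Pdgfra, the receptor that holds progenitors in division, stood at 24.1 and 22.4 FPKM (log2 ratio −0.10). That ratio was unremarkable for its level, since 17.7% of 5257 genes were as low or lower. Gpr17, a receptor gene of cells that have stopped dividing and do not yet make myelin, stood at 15.2 and 12.6 FPKM (1.202-fold lower in plain FPKM, log2 ratio −0.25). At its level 3.02% of 5667 genes were as low or lower, the smallest share of the 9. Enpp2 encodes autotaxin, a secreted enzyme that makes the lipid signal lysophosphatidic acid (LPA). It stood at 9.73 and 8.01 FPKM (1.21-fold lower in plain FPKM, log2 ratio −0.25), where 4.41% of genes at its level were as low or lower. Gpr17 and Enpp2 thus lay side by side: the FPKM of Enpp2 was 0.642 of that of Gpr17 with AAV-Control and 0.635 with AAV-Gata1.

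The myelin protein genes differed little. Mbp, whose product packs the myelin membrane, stood at 37.8 and 38.5 FPKM (log2 ratio 0.025). Cnp, which encodes an enzyme of myelin and its precursor cells, stood at 59.4 and 60.2 FPKM (log2 ratio 0.020). Mag, an adhesion protein of the innermost myelin layer, stood at 3.75 and 3.65 FPKM (log2 ratio −0.033). Mbp and Cnp kept nearly one proportion, Cnp being 1.57 times Mbp with AAV-Control and 1.56 times with AAV-Gata1.

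Set against Gpr17, Mbp and Cnp took a larger part with AAV-Gata1, as Mbp did against Pdgfra and Olig2. Among other genes of myelin and mature cells, 11 of the 13 compared were lower, against 54.7% of all genes (median log2 ratio −0.065). The larger part is therefore shown for Mbp and Cnp, not for myelin genes at large. Mbp was 2.495 times Gpr17 in FPKM with AAV-Control and 3.05 times with AAV-Gata1, and Cnp was 3.92 and 4.77 times Gpr17. The step was smaller against Pdgfra and Olig2: Mbp was 1.57 and 1.72 times Pdgfra, and 0.989 and 1.14 times Olig2. The summed level of Olig2, Olig1 and Sox10 was 134.8 and 124.4 FPKM, that of Pdgfra, Gpr17 and Enpp2 was 48.99 and 43.1 FPKM, and that of Mbp, Cnp and Mag was 101.0 and 102.4 FPKM. In such bulk RNA, fewer cells of a type and less RNA per cell cannot be told apart.

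**Figure D2:**
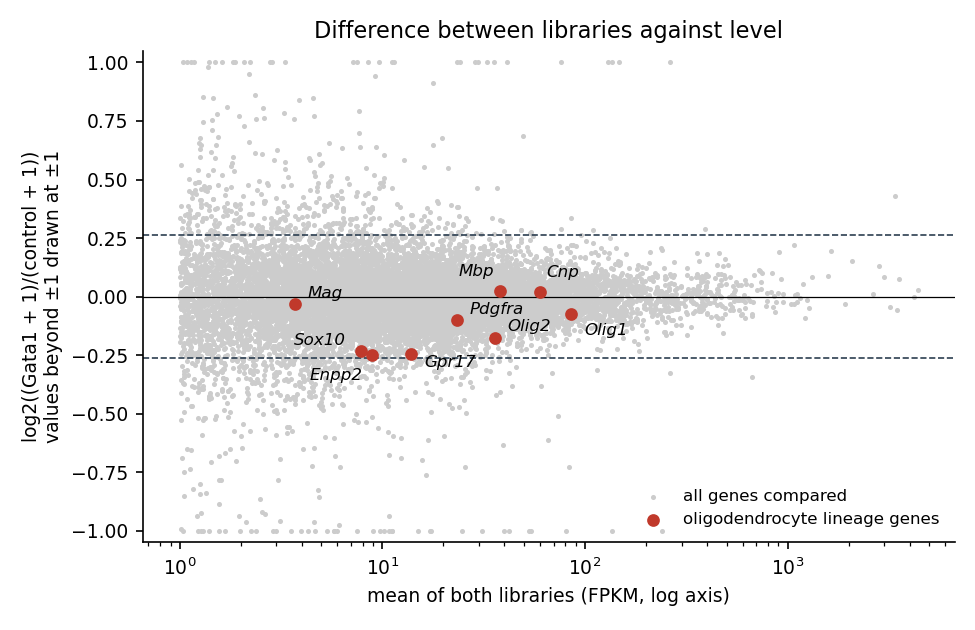
Log2((Gata1 FPKM + 1)/(control FPKM + 1)) against the mean FPKM of both libraries (log axis) for all 13740 genes compared (grey) and the 9 lineage genes (red). Dashed lines mark 1.2-fold; Enpp2, Gpr17 and Sox10 lie just inside the lower line and Mbp and Cnp just above 0.

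Some of the 9 share ground with other annotated genes, and the sources used here do not say whether fragments were counted by strand. In RefSeq's annotation (GRCm38.p6) Gpr17 overlaps Lims2 (2.79 and 2.42 FPKM), and Cnp overlaps the chaperone gene Dnajc7 (126 and 118 FPKM). Dnajc7 was lower with AAV-Gata1 and Cnp almost level, and whether shared fragments affect either value was not tested. Mbp, Pdgfra and Olig2 overlap predicted genes, a pseudogene or a microRNA gene, of which Rpl21-ps8 (0.128 FPKM, then listed at 0) and Mir7025 (listed at 0 in both) had rows. Sox10, Olig1, Enpp2 and Mag overlap no other annotated gene.

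Windows around starts of transcription from RefSeq (GRCm38.p6) are given for 4 of the 9 genes, matched by symbol. They are 6 windows of 300 letters, from 250 before to 50 after a start, 3 of them for Mag, of which a pair shares 241 letters, so the windows are not independent of each other. The word that GATA factors bind was searched on both strands as AGATAA or AGATAG or TGATAA or TGATAG, and none of the 6 windows held it, against 29.8% of 32851 windows of all genes. The E-box CANNTG, the kind of word that OLIG proteins bind, was in 5 of the 6, from 3 of the 4 genes, and in 72.3% of all windows. The word TATAAA, searched on both strands, was in the Olig2 window alone among the 6 and in 13.6% of all. A window without a word says only that these letters are not in it. One window is shown for each role (a factor, a receptor and a myelin gene), since these roles lay apart in the mRNA; capitals mark E-boxes and TATAAA.
Olig2 (chr16:91225300-91225599, plus strand): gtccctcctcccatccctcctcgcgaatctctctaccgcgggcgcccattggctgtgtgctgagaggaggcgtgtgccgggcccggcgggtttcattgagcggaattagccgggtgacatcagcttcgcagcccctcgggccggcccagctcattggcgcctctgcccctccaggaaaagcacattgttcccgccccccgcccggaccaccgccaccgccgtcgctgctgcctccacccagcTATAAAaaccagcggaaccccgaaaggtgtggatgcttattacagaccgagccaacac
Pdgfra (chr5:75152001-75152300, plus strand): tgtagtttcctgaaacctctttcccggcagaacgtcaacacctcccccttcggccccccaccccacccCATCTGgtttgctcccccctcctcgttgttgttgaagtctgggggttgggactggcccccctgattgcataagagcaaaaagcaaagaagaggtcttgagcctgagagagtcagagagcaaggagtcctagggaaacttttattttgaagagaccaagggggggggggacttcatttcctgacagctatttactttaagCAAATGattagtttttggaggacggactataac
Cnp (chr11:100574689-100574988, plus strand): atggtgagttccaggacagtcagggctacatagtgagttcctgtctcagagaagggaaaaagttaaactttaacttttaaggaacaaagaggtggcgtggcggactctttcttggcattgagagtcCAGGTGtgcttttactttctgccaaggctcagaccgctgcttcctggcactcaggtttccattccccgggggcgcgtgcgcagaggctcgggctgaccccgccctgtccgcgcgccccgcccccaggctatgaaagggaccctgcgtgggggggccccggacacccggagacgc

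Other genes of the lineage were described in 8 lists chosen by function. Of 89 genes with a row, 69 averaged 1 FPKM or more, and 45 of these were lower with AAV-Gata1 (65.2%, against 54.7% of all genes). Their median log2 ratio was −0.058. At least 1.2-fold lower were 5, and 0 were as far apart on the higher side, where 3.98% and 3.29% of all genes were. The 5 were Pcdh15, Bcas1, Adamts4, Rtn4rl2 and, named after its values were seen, Fa2h, which encodes a lipid hydroxylase of myelin (1.36 and 0.940 FPKM).

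Genes of the progenitor surface and matrix were lower in 9 of 11 cases, against 54.7% of all genes (median −0.15). Ptprz1, a phosphatase of progenitors and astrocytes, stood at 127 and 119 FPKM. The AMPA receptor auxiliary gene Cacng4 stood at 33.9 and 31.7 FPKM, and C1ql1, a secreted protein of progenitors, at 31.5 and 32.5 FPKM. Furthest apart was the protocadherin gene Pcdh15, at 3.59 and 2.46 FPKM (log2 ratio −0.41).

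Genes of newly formed oligodendrocytes were lower in 8 of 10 cases, against 54.7% of all genes (median −0.10). Bcas1, a marker of cells that begin to make myelin, stood at 17.998 and 14.8 FPKM (log2 ratio −0.27), near the ratio of Gpr17. The adhesion gene Nfasc, also expressed by neurons, stood at 20.2 and 17.4 FPKM. The kinase gene Fyn (84.9 and 82.5 FPKM) and the GTPase gene Rras2 (21.8 and 21.6 FPKM) differed less.

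Genes of myelin and mature cells were lower in 11 of the 13 that could be compared, against 54.7% of all genes (median −0.065). Mbp and Cnp were not lower. The deacetylase gene Sirt2 stood at 142 and 136 FPKM. Trf, the iron carrier transferrin, stood at 21.9 and 23.7 FPKM, and the protease gene Adamts4 at 1.63 and 1.13 FPKM (log2 ratio −0.30). The other 13 genes of this list were under 1 FPKM. Among these, named after their values were seen, Mog stood at 0.762 and 0.798 FPKM, Mobp at 0.382 and 0.433 FPKM and Mal at 0.278 and 0.348 FPKM, while Opalin and Klk6 were listed at 0 in both libraries. Late myelin genes were therefore near or at 0 in cultures where Mbp and Cnp were abundant.

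**Figure D3:**
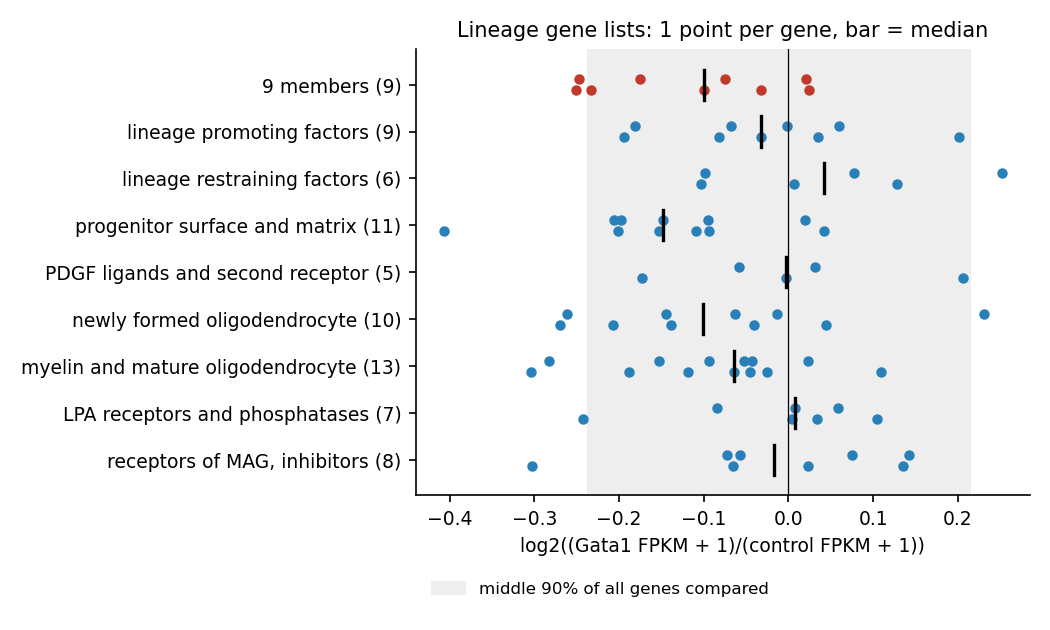
Log2((Gata1 FPKM + 1)/(control FPKM + 1)) of each gene (points) of the 9 genes and of 8 lineage lists, with the number of genes compared in brackets and the median as a bar. The grey band runs from the 5th to the 95th percentile of all genes compared, −0.24 to 0.21; the progenitor surface list has its median furthest to the left, at −0.15.

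Factors that promote the lineage were lower in 6 of 9 cases, against 54.7% of all genes (median −0.032). Sox9, a glial factor, stood at 66.5 and 68.1 FPKM, Zeb2 at 33.8 and 32.2, and the zinc finger gene St18 at 1.36 and 1.71 FPKM (log2 ratio 0.20). Some other genes of this list are named after their values were seen. Sox8, a close relative of Sox10, stood at 21.9 and 19.1 FPKM (log2 ratio −0.19). Myrf, the factor that starts myelin gene expression, stood at 3.07 and 2.59 FPKM (log2 ratio −0.18). Nkx2-2 stood at 2.35 and 2.49 FPKM (log2 ratio 0.060). Zfp488 stood at 3.35 FPKM in both (log2 ratio −0.0020) and Tcf7l2 at 9.68 and 9.44 FPKM (log2 ratio −0.032).

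Factors that restrain differentiation were higher in 4 of 6 cases, against 45.3% of all genes (median 0.042). The inhibitor genes Id2 and Id4 stood at 182 and 199 FPKM and at 204 and 216 FPKM. Hes1, an effector of Notch, stood at 11.3 and 13.7 FPKM, and Hes5, another one, at 11.3 and 10.5 FPKM. Sox5 stood at 10.7 and 9.89 FPKM and Sox6 at 25.6 and 25.7 FPKM. Neural progenitors and astrocytes also express most of these genes.

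Ligands of PDGFRA and a second receptor were also followed. Pdgfa, which makes the main ligand for progenitors, stood at 15.5 and 13.6 FPKM (log2 ratio −0.17), and Pdgfc at 4.71 and 4.48 FPKM. Pdgfb and Pdgfd, whose products act mainly on PDGFRB, stood at 5.53 and 5.67 FPKM and at 3.53 and 4.22 FPKM (log2 ratio 0.21). Pdgfrb, a receptor of pericytes, stood at 13.6 FPKM in both. The median of these 5 was −0.0030.

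Receptors and phosphatases of LPA, the product of autotaxin, were lower in 2 of 7 cases, against 54.7% of all genes (median 0.0072). Lpar1 stood at 13.4 and 13.996 FPKM. Among the phosphatases that degrade LPA, Ppap2b stood at 311 FPKM in the Gata1 library against 310.3 in the control, Ppap2a at 20.7 and 22.4, and Ppap2c at 1.57 and 1.17 FPKM. Genes for receptors of MAG and related inhibitors of axon growth were lower in 4 of 8 cases, near the 54.7% of all genes (median −0.017). Rtn4, which encodes Nogo, stood at 174 and 192 FPKM, Lrp1 at 49.3 and 47.3 and the coreceptor gene Lingo1 at 41.6 and 39.7 FPKM. Rtn4rl2, a MAG receptor of neurons, stood at 7.86 and 6.18 FPKM (log2 ratio −0.30).

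Several of the 9 genes are also used by other cells, so markers of those cells are given beside them. Of all genes compared, 54.7% were lower and 45.3% higher. Microglia markers were higher in 8 of 8 cases (10 listed, summed level 295 and 347 FPKM), led by the complement genes C1qa (92.3 and 109 FPKM) and C1qc (82.5 and 93.0 FPKM). Neuron markers were lower in 6 of 6 cases, with sums of 507 and 483 FPKM and a median of −0.12, close to that of the 9 genes; Snap25 stood at 116 and 109 FPKM. Astrocyte markers were lower in 4 of 7 cases, with sums of 2405 and 2398 FPKM, and the astrocyte gene Slc1a3 stood at 607 and 610 FPKM. Markers of neural progenitors were lower in 2 of 5 cases, with sums of 1499 and 1592 FPKM and Sox2 at 139 and 153 FPKM.

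Choroid plexus, which expresses Enpp2 strongly, had summed marker levels of 32.5 and 27.5 FPKM over 7 genes. Of these, 2 of 4 compared were lower, against 54.7% of all genes. Its transthyretin gene Ttr stood at 20.4 and 14.2 FPKM (log2 ratio −0.49) and Folr1 at 7.15 and 8.96 FPKM (log2 ratio 0.29), and the other 5 genes of the list are named after their values were seen. Kcnj13 stood at 2.88 and 2.94 FPKM and Otx2 at 1.57 and 1.06 FPKM (log2 ratio −0.32). Aqp1 stood at 0.359 and 0.261 FPKM, while Kl and Clic6 were at no more than 0.0514 FPKM. The part of these cells in the difference of Enpp2 was not tested.

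Fibroblasts of the meninges, which express Pdgfra, had summed marker levels of 9.06 and 8.26 FPKM over 5 genes. Nearly all of this was Dcn (8.43 and 7.62 FPKM), and the collagen genes Col1a1, Col1a2 and Col3a1, named after their values were seen, lay at no more than 0.293 FPKM. Pericyte and smooth muscle markers summed to 136 and 116 FPKM over 7 genes, 3 of 4 being lower, against 54.7% of all genes. Acta2 stood at 76.4 and 60.7 FPKM and Tagln at 41.5 and 36.8 FPKM, and Kcnj8 was listed at 0 in both. Schwann cell markers, which bear on Sox10, summed to 3.08 and 2.68 FPKM over 6 genes, with 1 compared: Egr2, also a neuronal activity gene, stood at 1.44 and 1.32 FPKM, and Foxd3 was listed at 0 in both. Endothelial markers summed to 3.09 and 3.06 FPKM over 5 genes, Kdr making up most of it (2.44 and 2.20 FPKM). The part of the cells behind these lists in the differences of the 9 genes was not tested.

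**Figure D4:**
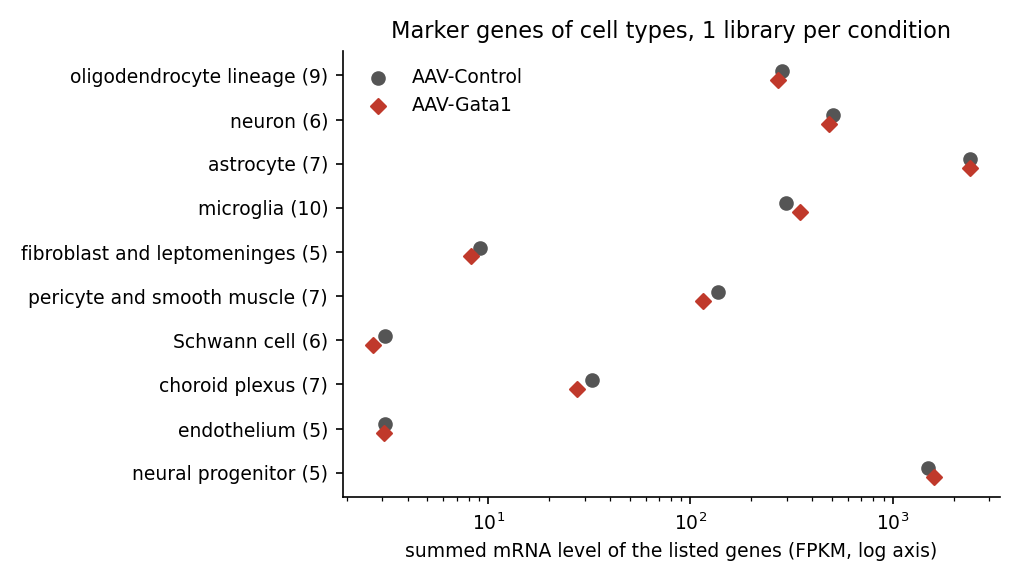
Summed FPKM (log axis) of the listed genes of each cell type, with the number of genes in brackets, for AAV-Control (grey circles) and AAV-Gata1 (red diamonds), 1 library each. The oligodendrocyte lineage sums, 285 and 270 FPKM, lie near those of microglia, which were higher with AAV-Gata1, and far above those of Schwann cells and endothelium.

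MicroRNAs with a known role in the lineage were read from the small RNA libraries. The miR-219 family and miR-338 promote the step from progenitor to myelinating cell, and miR-219 acts among other targets on Pdgfra and Sox6. This background is given by family and does not separate the arms. miR-219a-5p had 4 reads with AAV-Control and 3 with AAV-Gata1, and miR-338-3p had 3 and 9. Ratios of these families with at least 20 reads therefore rest on other forms. Of those, miR-219a-1-3p, miR-219c-5p and miR-338-5p have other seeds. Whether those forms act on Pdgfra or Sox6 was not tested. Forms with reads that the results turn on are shown from RefSeq (GRCm38.p6), with the seed (bases 2 to 8) in capitals. miR-219a-5p lies on chromosomes 2 and 17, miR-219a-1-3p on 17 and miR-338 on 11. The miR-7 pair shares its seed, as does the pair miR-17-5p and miR-20a-5p. Of 16 names looked up, 15 had a mature sequence, and miR-219a-2-3p is given by name alone.
miR-219a-5p: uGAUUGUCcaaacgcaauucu
miR-219a-1-3p: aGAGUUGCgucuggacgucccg
miR-338-5p: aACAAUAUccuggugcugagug
miR-338-3p: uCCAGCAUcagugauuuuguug
miR-7a-5p: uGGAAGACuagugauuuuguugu
miR-7b-5p: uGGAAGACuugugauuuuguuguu
miR-17-5p: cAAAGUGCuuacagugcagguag
miR-20a-5p: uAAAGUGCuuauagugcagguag

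Most of these microRNAs were slightly lower with AAV-Gata1, as the mRNAs of the factor and receptor genes and Enpp2 were. Values are reads scaled to 1000000 per library (CPM), with the ratio of both libraries and an exact 95% interval that covers counting error only. Of 11 with at least 20 reads, 10 had a ratio under 1, against 44% of all 563 microRNAs at that depth. The interval lay wholly below 1 for 4 and wholly above 1 for 1, against 19.4% and 29.8% of the 563. These intervals compare the reads of 2 libraries and say nothing of the spread between cultures.

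The most abundant form of the miR-219 family, miR-219a-2-3p, stood at 119 and 110 CPM (1863 and 1395 reads, ratio 0.926, interval 0.863 to 0.993). Its relative miR-219a-1-3p had the same ratio at a lower level, 14.8 and 13.7 CPM (ratio 0.926, interval 0.756 to 1.13). miR-338-5p stood at 58.7 and 57.1 CPM (ratio 0.972, interval 0.881 to 1.07), so a difference was not detectable at this depth. miR-219c-5p had 15 and 8 reads (ratio 0.659, interval 0.242 to 1.66). No reads were found for miR-219b-5p, miR-219b-3p or miR-219c-3p, where a count of 0 allows up to 0.192 CPM with AAV-Control and 0.237 CPM with AAV-Gata1.

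Both members of the miR-7 pair, which acts in early glial cells and in many neurons, were lower. miR-7a-5p stood at 680 and 576 CPM (ratio 0.847, interval 0.822 to 0.873) and miR-7b-5p at 426 and 382 CPM (ratio 0.897, interval 0.864 to 0.931). Of the miR-17 cluster, which supports growth of progenitors, miR-17-5p stood at 57.3 and 49.7 CPM (ratio 0.867, interval 0.781 to 0.961). miR-19b-3p of that cluster had a ratio of 0.902 (interval 0.781 to 1.04) and miR-20a-5p, with the same seed as miR-17-5p, one of 0.976 with an interval that also held 1. miR-138-5p, described in early differentiation, stood at 33.97 and 29.8 CPM (ratio 0.878, interval 0.767 to 1.004). The exception was miR-23a-3p, which promotes myelin formation and is found in many cell types, at 683 and 770 CPM (ratio 1.13, interval 1.096 to 1.158).

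**Figure D5:**
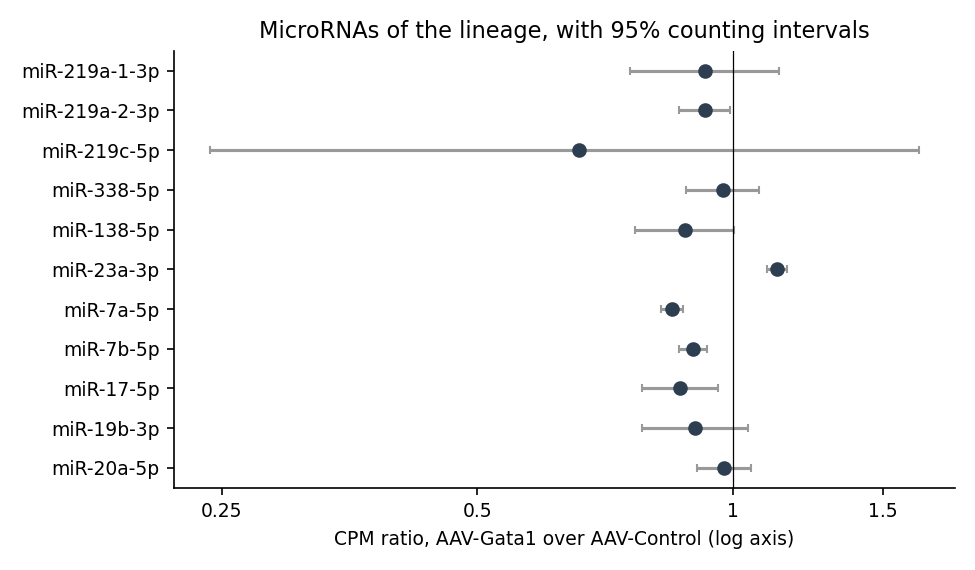
CPM ratio (AAV-Gata1 over AAV-Control, log axis) of the 11 lineage microRNAs with at least 20 reads, with exact 95% intervals for counting error alone. Only the interval of miR-23a-3p lies above 1; those of miR-219a-2-3p, miR-7a-5p, miR-7b-5p and miR-17-5p lie below it.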

How the data were processed

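The deposited mRNA values are FPKM made by the authors, per the file headers, in 1 table per condition. The deposited small RNA values are CPM, called normalized counts per the file headers, and each column sums to 1000000. The submitters' processing notes name TopHat2 2.1.1, Cufflinks 2.1.1, Cuffdiff 2.1.1, Bowtie 1.1.2, HTSeq 0.6.1p1, edgeR 3.10.2, BWA, HOMER and the builds mm9 and mm10, with no role for each. The 6 chromatin and input samples were not analysed here.

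Of 40993 mRNA rows, 6 carried no symbol (0.0122% and 0.0113% of summed FPKM) and were dropped. A symbol on several rows was represented by its highest by mean. Genes averaging 1 FPKM or more were compared on log2(FPKM + 1) and counted past 1.2-fold and 2-fold. No whole-fragment step was found: among the 1274 genes that lay above 0 but below 0.1 FPKM in each library, at most 43 shared a log2 ratio within 0.02, so the mRNA depth is unknown.

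All CPM above 0 (100%) were whole multiples of 1 read per library within 0.0055 CPM, which gives 15632553 and 12644419 reads over 2241 precursor rows. The highest row of each of 1915 names was kept, and these rows held 7741365 and 6314572 of the reads. Exact conditional binomial (Clopper-Pearson) 95% intervals on these reads, a comparison added after the data were seen, lay above 1 for 168 and below 1 for 109 of 563 microRNAs with at least 20 reads. Intervals and the limit for a count of 0 (3 reads) cover counting error only, since PCR copies are not independent molecules.

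The members and lists were chosen with earlier results of these data known. Named were the 9 members, the 3 highest and the furthest-apart gene of each lineage list (all of lists of 6 or fewer), the 2 highest markers of each cell type, markers at 0 in both, and all listed microRNAs with reads; some genes that this rule names are not reported here. This rule names no gene for a like pattern, since 2 libraries give 1 ratio per gene. Genes said to be named after their values were seen fall outside the rule. Alternatives were other pseudocounts, minimum levels, row choices and scalings. The counting was tested on simulated data. Python 3.11.15, pandas 2.3.3, numpy 2.4.6, scipy 1.17.1 and matplotlib 3.10.9 were used.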

Additional observations from a re-analysis of the deposited data

How the results depend on the processing

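The directions of all 9 genes were the same under the 7 alternatives run on the mRNA values. A minimum mean of 5 FPKM left Mag out, with 6 of 8 then lower. Other pseudocounts, minimum levels and summed rows cannot change the direction of a gene that has 1 row. Only centring on the median of all genes and scaling to a common sum could have done so. The log2 ratio ranged from −0.26 to −0.16 for Sox10, −0.26 to −0.19 for Gpr17 and −0.28 to −0.18 for Enpp2. With a pseudocount of 0.1 FPKM, 2 of the 9 (Enpp2 and Gpr17) were at least 1.2-fold lower, against 5.9% of all genes, and with a common sum of 1000000 FPKM 1 was (Enpp2), against 5.08%. Without a minimum level the medians were 0.034 for fibroblast, 0.071 for endothelial and −0.040 for choroid plexus markers. Centring on the median of all genes, a shift of −0.013, turned the median of the platelet-derived growth factor list to 0.0096. Dividing the microRNA ratios by their median (log2 0.052) gave 1.09 for miR-23a-3p and 0.817 for miR-7a-5p. The other values moved by less than the spread over all genes (0.11 on the log2 scale, from the median absolute deviation) or stayed within their counting interval. That spread is wider than most list medians are far from 0, so staying within it does not fix the sign of a small median. Against named genes alone, chosen after the data were seen, 54.9% were lower and 2.78% at least 1.2-fold lower. No paired analysis was possible because each condition has 1 library. With 1 library per condition and unknown mRNA depth, no error can be set on an FPKM.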

Other observations

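The arms of the lineage microRNAs were unequal. miR-338-3p, the arm of miR-338 usually described in oligodendrocytes, had 3 reads with AAV-Control and 9 with AAV-Gata1 (ratio 3.71, interval 0.926 to 21.3), while miR-338-5p had 918 and 722. miR-219a-5p, in the higher of its rows, had 4 and 3 reads (ratio 0.927, interval 0.136 to 5.48), against 1863 and 1395 for miR-219a-2-3p. In RefSeq's annotation miR-338-3p shares 21 of its 22 positions with miR-3065-5p on the opposite strand, which had 0 reads in both libraries and was looked up for this overlap alone. miR-219a-5p shares 21 of its 21 positions with miR-219b-3p at one locus and 20 with miR-219c-3p at the other, both without reads. miR-219a-1-3p, which had 231 and 173 reads, also shares 20 of its 22 positions with miR-219c-5p on the opposite strand. Whether such positions affect how reads were assigned was not tested.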
